A study of Mus musculus with 9 samples.

Results

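The voltage-gated and related ion channel genes were chosen by name, as annotated symbols that begin with Kcn, Scn, Cacn, Hcn or Clcn, apart from Cacna2d1. On the array, 131 such symbols had a probe set assigned to a single gene. Of these, 88 exceeded the 40th percentile of the array concerned on 3 or more arrays and were kept, among 13320 kept genes of all kinds. They comprised 53 potassium, 19 calcium, 8 sodium and 6 chloride channel genes and 2 genes of the hyperpolarization-activated channels, which pass both potassium and sodium. Expression was measured on 9 Affymetrix arrays in 3 groups of 3 biological repeats. The first group was retinal progenitor cells derived from embryonic stem cells (ESC-RPCs) that were given 1 ng/ml recombinant DKK1, a secreted inhibitor of Wnt signalling, for 1 day. The second was ESC-RPCs without DKK1, and the third was primary retinal progenitor cells taken from C57 neural retina 1 day after birth. Both ESC-RPC groups came from the single 46C line, made by gene targeting in E14Tg2a.IV cells. They shared 3 days as embryoid bodies with SB431542, a blocker of Nodal signalling, a sort for Sox1-positive cells (35.8%) at day 7, and culture with 10 µM DAPT and 20 ng/ml basic fibroblast growth factor. DAPT blocks Notch processing. The labels call the primary cells cultured in one field and dissociated in another, and give no sort for them.

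Ion channels are membrane proteins whose pore subunits let selected ions pass, and auxiliary subunits set where, when and how strongly those pores open. Potassium channels return the membrane to rest and set its resting level, sodium channels carry the upstroke of the action potential, and calcium channels couple voltage to transmitter release and gene expression. In the retina, photoreceptors answer light with graded voltage changes shaped by their own potassium and calcium channels, whereas ganglion cells fire action potentials. Several of the 88 symbols are not channels in a strict sense. Scnm1 encodes a splicing factor, Kcnq1ot1 and Kcnmb4os2 are noncoding RNAs, most Cacng proteins escort AMPA-type glutamate receptors, and Clcn3 to Clcn7 encode mainly exchangers of chloride for protons in intracellular membranes.

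All values are MAS5 intensities on a linear scale, scaled by the authors to a trimmed mean of 500 on each array. The level of one probe set cannot be set against that of another. Log2 differences are given as ESC-RPCs minus primary cells, or DKK1-treated minus untreated cells, ± SE from one limma fit over all 13320 genes, and a gene was called at an adjusted p below 0.05. Several marker lists differed between ESC-RPCs and primary cells, while 0 listed markers were called between DKK1-treated and untreated cells. Against primary cells the background over all genes was 26.0% called higher and 26.8% lower in DKK1-treated cells, and 26.1% and 26.9% in untreated cells. All 9 kept photoreceptor markers fell in both ESC-RPC groups against primary cells, with summed intensities of 1238 to 1689 in DKK1-treated, 1455 to 1852 in untreated and 33383 to 48340.3 in primary cells. Of them Crx, Nrl, Sag, Pdc, Gngt1, Opn1sw and Rp1 lay below the 40th percentile on every ESC-RPC array. They were kept through primary arrays alone, so the filter favoured their fall, as it did for Ctss, C1qa, C1qb, Tyrobp, Tnni1 and Dct in the lists below. Of 10 retinal progenitor markers 3 rose and 6 fell in DKK1-treated cells and 4 rose and 6 fell in untreated cells, with sums of 21814 to 24079 in DKK1-treated, 22123 to 24118 in untreated and 39142 to 44795 in primary cells. Among those that fell, the eye field gene Rax was below the 40th percentile on all 3 DKK1-treated and 2 of 3 untreated arrays. All 9 pluripotency markers rose in both ESC-RPC groups, including Nanog and Zfp42. Nanog, Zfp42, Dppa4 and Tdgf1 lay below the 40th percentile on every primary array, so the filter favoured their rise, as it did for Gfap, Aqp4 and Lum below. Of 9 glial markers 7 rose and 2 fell in each ESC-RPC group, with sums of 27862 to 31486 in DKK1-treated, 27986 to 30766 in untreated and 10349 to 12688 in primary cells. Of 9 markers of mesenchyme and smooth muscle 7 rose and 1 fell in each, with sums of 20098 to 23086 in DKK1-treated, 19648 to 23457 in untreated and 3488 to 4895 in primary cells. Of 10 amacrine and ganglion cell markers 2 rose and 7 fell in each. Microglia and macrophage markers (8 kept) fell for 6 in DKK1-treated and 5 in untreated cells, and 0 rose. Endothelial markers (4 kept) rose for 1 and fell for 2 in each ESC-RPC group, and 1 of 4 pigment epithelium markers fell in each. Cardiac and skeletal muscle markers (8 kept) rose for 1 and fell for 6 in DKK1-treated cells, and fell for 6 in untreated cells. Of 16 neuron markers 4 rose and 4 fell in each ESC-RPC group, with sums of 56545 to 72640.2 in DKK1-treated, 56997 to 67139 in untreated and 52320.4 to 61931 in primary cells. The part of this mixture of cells in the channel differences was not tested, and fewer cells of a type cannot be told apart from less RNA per cell. Primary replicate 2 stood apart in the muscle list, with a summed intensity of 9146 against 2114 and 1376 on the other primary arrays.

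Promoter sequence was at hand for 69 of the 88 members, from RefSeq on GRCm38.p6. Shown here are the 250 bases before the start of 2 genes that rose and 2 that fell in untreated against primary cells. They were the 2 largest rises and 2 largest falls among eligible members. Eligible were called members above the 40th percentile on all 9 arrays with a single promoter entry, outside a chromosome that was set aside. The 2 that rose are not a strict ranking of all members. Kcnk2 (1.59 on the log2 scale), Kcnn2 (1.38), Scn3a (1.36) and Kcnip3 (1.24) rose by more than the printed Kcnd2 (1.11) but were not eligible. CG content played no part in the choice, and its difference between the windows was noticed in the data. No test is given, and the contrast describes the printed genes only. Cacna2d3, a calcium channel alpha2delta subunit, lies at chr14:29721865-29722114 (minus strand), and Kcnd2, a pore subunit of fast-inactivating potassium channels, at chr6:21215096-21215345 (plus strand). Kcna5, a voltage-gated potassium pore subunit, lies at chr6:126535556-126535805 (minus strand), and Kcnk1, a two-pore-domain potassium channel gene, at chr8:125994852-125995101 (plus strand). Capitals mark GGGCGG and CAGCTG on either strand.
Cacna2d3: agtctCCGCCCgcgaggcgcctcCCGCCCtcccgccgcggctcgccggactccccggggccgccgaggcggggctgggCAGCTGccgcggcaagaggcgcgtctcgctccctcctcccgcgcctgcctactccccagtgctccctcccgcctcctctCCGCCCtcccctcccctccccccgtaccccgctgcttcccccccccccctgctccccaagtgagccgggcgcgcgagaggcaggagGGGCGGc
Kcnd2: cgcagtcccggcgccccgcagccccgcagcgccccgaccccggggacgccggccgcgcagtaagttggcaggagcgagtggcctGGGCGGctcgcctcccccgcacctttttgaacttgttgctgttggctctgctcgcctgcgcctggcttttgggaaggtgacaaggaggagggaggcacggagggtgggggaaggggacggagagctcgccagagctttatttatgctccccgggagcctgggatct
Kcna5: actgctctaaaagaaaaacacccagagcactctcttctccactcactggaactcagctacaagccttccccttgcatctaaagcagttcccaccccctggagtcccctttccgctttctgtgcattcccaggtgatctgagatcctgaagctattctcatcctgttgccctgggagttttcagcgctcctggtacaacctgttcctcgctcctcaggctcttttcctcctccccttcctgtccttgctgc
Kcnk1: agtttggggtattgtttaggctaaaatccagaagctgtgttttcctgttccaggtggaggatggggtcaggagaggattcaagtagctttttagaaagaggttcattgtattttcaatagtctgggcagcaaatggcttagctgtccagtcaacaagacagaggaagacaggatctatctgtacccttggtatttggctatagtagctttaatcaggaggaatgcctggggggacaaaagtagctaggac
The 2 genes that rose held 30 and 22 CG pairs in these windows, and the 2 that fell held 3 and 0. Over all members with an entry, 300-base promoters (50 bases past the start included) held a median of 14 CG pairs for genes called higher in untreated cells, 7 for genes called lower and 13 for those not called, against 7 for all promoters in the table. In all, 11 motifs were searched on both strands. Photoreceptor homeodomain factors bind TAATCC. Sp-family factors bind GGGCGG. The core promoter element searched was TATAAA. The E-boxes were CAGCTG, then the proneural form CAGATG, and the palindrome CACGTG. For GATA factors the letters were GATAAG. For cyclic AMP response factors they were TGACGTCA. For REST they were pieces of its element, namely GGACAGC from one side, CAGCACC from the other, and the longer TTCAGCACC, which contains the piece before it. GGGCGG was found in 14 of 28 entries of genes called higher, 12 of 32 of those called lower and 23 of 43 of those not called, against 35.7% of all promoters. CAGCTG was found in 9 of 28 entries of genes called higher, 12 of 32 of those called lower and 5 of 43 of those not called, against 16.3% of all promoters. Both were singled out after the counts of the 11 motifs were seen, and some genes have several overlapping entries, so these shares are descriptions only.

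DKK1-treated ESC-RPCs were set against untreated ones to see how channel genes answered 1 day of the factor. No channel gene passed the test: 0 of 88 were called, as were 0% of the 13320 genes, and 4 members had an unadjusted p under 0.05 (background 2.31%). Kcnj11, the pore subunit of ATP-sensitive potassium channels, had the smallest p. It measured 193, 302 and 185 in DKK1-treated cells, against 327, 315 and 339.7 in untreated cells. All 3 treated arrays were lower, though replicate 2 lay close to the untreated ones (log2 difference -0.57 ± 0.18, adjusted p = 1). Kcnk13, a two-pore-domain potassium channel gene, measured 41.3, 27.8 and 24.0 in treated against 55.3, 78.9 and 55.3 in untreated cells, and the treated arrays were all below their 40th percentile. Cacng7, which encodes an AMPA receptor auxiliary protein, measured 199.6, 193 and 210.0 in treated against 219, 262 and 289 in untreated cells, again with no overlap. Its other kept probe set lay the other way, at a log2 difference of 0.34, beside -0.35 for this one.

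The other genes among the 6 smallest p-values were higher in treated cells. Kcnv2, a silent potassium channel subunit best known from photoreceptors, measured 30.5, 24.3 and 18.0 in treated against 19.8, 11.7 and 5.45 in untreated cells, all below the 40th percentile and overlapping. Kcnk5, a pH-sensitive two-pore-domain channel gene, measured 228, 259 and 284 in treated against 187, 203 and 205 in untreated cells, without overlap. Cacnb4, a calcium channel beta subunit that brings pores to the membrane, measured 240.2, 206 and 138 in treated against 159, 156 and 92.4 in untreated cells. Array 3 was the lowest in both groups. By its other kept probe sets Cacnb4 differed by 0.81 and by -0.01 on the log2 scale, beside 0.52 for the one used. In all, the groups did not overlap for 8 members, namely Cacna1a, Cacng7, Kcna5, Kcnd1, Kcnh2, Kcnj11, Kcnk13 and Kcnk5, which is 8 of 88 where the background over all genes was 12.0%.

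Replicate numbers were taken to pair the DKK1-treated and untreated arrays, on the basis of their values. With that pairing as a block in a limma fit of the 6 ESC-RPC arrays, again 0 of 88 channel genes were called, against 0.488% of all genes, and 12 had an unadjusted p under 0.05 against 15.0% of all genes. The smallest adjusted p of a member was 0.127, for Kcnj11. Its paired differences were -0.77, -0.06 and -0.87 on the log2 scale. Cacnb4 differed by 0.60, 0.40 and 0.58 (adjusted p = 0.127). All 3 pairs had the same sign for 29 members (33.0%), 19 higher and 10 lower in treated cells, against 37.4% of all genes. They are 21.6% of the members higher and 11.4% lower, beside 18.4% and 19.0% of all genes.

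**Figure D1:**
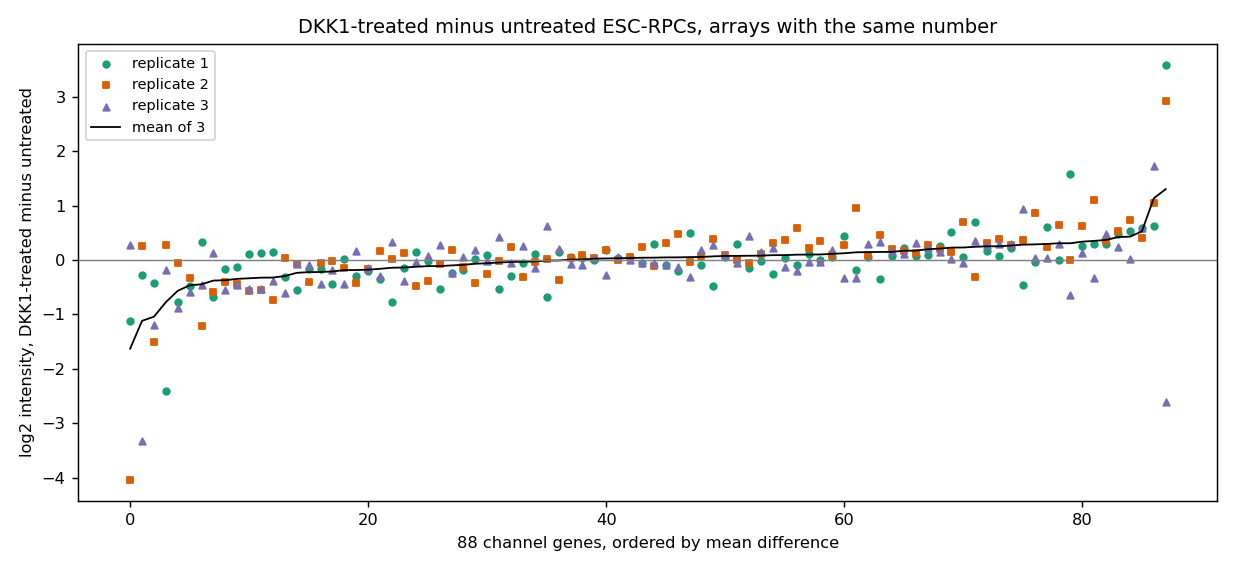
Log2 intensity of DKK1-treated minus untreated cells for each of the 88 channel genes, ordered by mean difference, with 1 point per pair of arrays with the same replicate number and a line for the mean of the 3. The points of a gene often lie on both sides of 0, with the same sign in all 3 pairs for 29 genes.

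The second question was how ESC-RPCs differ from primary retinal cells. In DKK1-treated cells 46 of 88 channel genes were called against primary cells (52.3%), 22 higher and 24 lower, where the background was 52.8% of all genes (26.0% higher and 26.8% lower). In untreated cells 47 were called (53.4%), 23 higher and 24 lower, where the background was 53.0% (26.1% higher and 26.9% lower). These comparisons share the primary arrays. The counts include genes, named below, that the filter kept through primary or ESC-RPC arrays alone, which favoured a call. The shares are near the background, so channel genes as a class were called about as often as other genes. The groups did not overlap for 49 members in DKK1-treated cells (background 59.2%) and 52 in untreated cells (background 60.0%). Over the members the median log2 difference was 0.0013 for DKK1-treated cells and 0.10 for untreated cells, beside -0.01 over all genes for each.

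By ion, 29 of 53 potassium channel genes were called in DKK1-treated cells, 12 higher and 17 lower, and 30 in untreated cells, 13 higher and 17 lower. Of 19 calcium channel genes 10 were called in each ESC-RPC group, 5 in each direction. Of 8 sodium channel genes 4 were called in each, 3 higher and 1, the splicing factor gene Scnm1, lower. The potassium channel genes called higher include the noncoding Kcnq1ot1. Of 6 chloride channel genes 3 were called in each, 2 higher and 1 lower, and 0 of 2 hyperpolarization-activated channel genes were called. Among potassium channel genes, 9 of 11 auxiliary subunits were called in each ESC-RPC group, beside 19 of 40 pore subunits in DKK1-treated and 20 of 40 in untreated cells. That contrast between roles was noticed in the data and has no test. Of the auxiliary subunits, Kcnip4 in both groups and Kcnab1 in untreated cells lost their calls without some single arrays. Kcne2 passed the filter through primary arrays alone. The background over all genes was 52.8% called in DKK1-treated and 53.0% in untreated cells. Among the 57 members above the 40th percentile on all 9 arrays, 29 were called in DKK1-treated cells (background of such genes 52.5%) and 30 in untreated cells (background 53.0%).

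**Figure D2:**
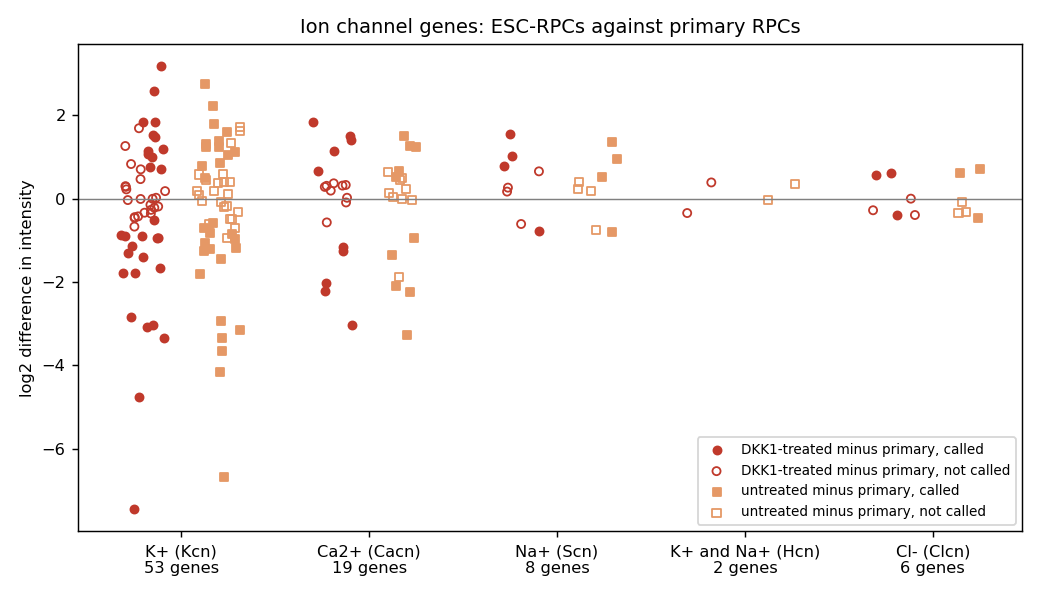
Log2 difference in intensity from primary cells for each of the 88 channel genes by ion, with DKK1-treated cells as circles and untreated cells as squares, filled where called. Potassium and calcium channel genes spread in both directions, the lowest point being Kcne2 in DKK1-treated cells, while sodium, hyperpolarization-activated and chloride channel genes stay nearer to 0.

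Among potassium channel genes, large falls were measured for auxiliary subunits and for pores alike. Kcne2, a small single-pass beta subunit, measured 1.79, 3.92 and 1.00 in DKK1-treated cells, 9.47, 3.25 and 1.14 in untreated cells, and 354, 315 and 339 in primary cells. It was below the 40th percentile on all 6 ESC-RPC arrays and well above it on all 3 primary arrays, so it passed the filter through primary arrays alone. Measured against those percentiles it was at least 7.13-fold lower in DKK1-treated cells (adjusted p = 7.97e-05) and at least 7.19-fold lower in untreated cells (adjusted p = 0.000172). Here and below, the adjusted p beside an "at least" fold belongs to the measured log2 difference and not to that bound. Kcnv2 stood at 189, 169 and 232 in primary cells, against the low ESC-RPC values given above, and was at least 4.14-fold lower in DKK1-treated cells (adjusted p = 0.000426) and at least 4.17-fold lower in untreated cells (adjusted p = 4.88e-05). Kcnv2 too passed the filter through primary arrays alone. The filter favoured a fall for Kcne2 and Kcnv2, so their calls are descriptions only. The Kcnv2 protein is silent alone and joins other voltage-gated pores, in photoreceptors above all. Kcne1l, another beta subunit gene, measured 40.2, 46.2 and 49.8 in DKK1-treated cells, 49.5, 61.6 and 44.5 in untreated cells, and 401, 449 and 528 in primary cells, and it fell by 3.34 ± 0.21 (SE) on the log2 scale in DKK1-treated cells (adjusted p = 6.03e-07) and fell by 3.15 ± 0.21 in untreated cells (adjusted p = 9.14e-07).

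Among pores, Kcna5 measured 94.5, 107 and 109.7 in DKK1-treated cells, 84.0, 86.1 and 90.7 in untreated cells, and 922, 844 and 869 in primary cells. The ESC-RPC arrays lay together far below the primary arrays, and Kcna5 fell by 3.08 ± 0.13 (SE) on the log2 scale in DKK1-treated cells (adjusted p = 4.64e-08) and fell by 3.34 ± 0.13 in untreated cells (adjusted p = 2.79e-08). Kcnk1, which encodes a weak leak channel, measured 385, 399 and 304 in DKK1-treated cells, 368, 375 and 267 in untreated cells, and 2684, 2697 and 2333 in primary cells. It fell by 2.83 ± 0.16 (SE) on the log2 scale in DKK1-treated cells (adjusted p = 2.37e-07) and fell by 2.95 ± 0.16 in untreated cells (adjusted p = 1.89e-07). Kcnc2, a pore subunit of fast-spiking neurons, measured 54.6, 72.6 and 5.30 in DKK1-treated cells, 66.1, 60.9 and 53.4 in untreated cells, and 735, 713 and 803 in primary cells. The third DKK1-treated array read far below the other ESC-RPC arrays, which lay close together. Kcnc2 fell by 4.76 ± 0.76 (SE) on the log2 scale in DKK1-treated cells (adjusted p = 0.000427) and fell by 3.64 ± 0.76 in untreated cells (adjusted p = 0.00235).

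**Figure D3:**
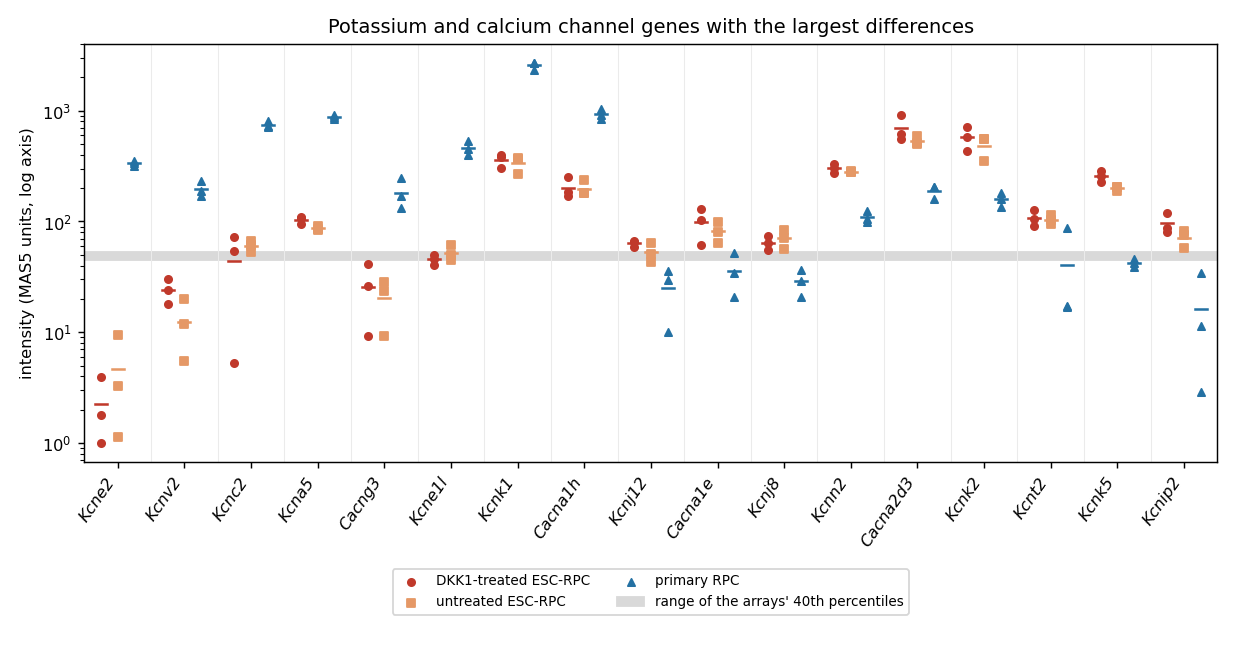
Intensity (log axis) on each array of the channel genes with the largest called rises and falls against primary cells, ordered by the untreated minus primary difference, with DKK1-treated, untreated and primary arrays from left to right, a bar for each mean and a grey band for the range of the arrays' 40th percentiles. Genes that fell, such as Kcna5 and Kcnk1, have their 6 ESC-RPC arrays far below the 3 primary arrays, and genes that rose, such as Kcnk5 and Cacna2d3, the reverse.

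The Kcna family of voltage-gated pores had 6 measured genes. None was called higher, and 4 were called lower in DKK1-treated cells and 3 in untreated cells. Over all genes 26.8% and 26.9% were called lower. Here and in the families below the genes are few, and the family counts have no test. Besides Kcna5 the genes called lower were Kcna1 (-0.89 and -0.82 on the log2 scale in DKK1-treated and untreated cells), Kcna2 (-1.14 and -1.17) and, in DKK1-treated cells, Kcna4, which was below the 40th percentile on all 3 arrays there and at least 1.29-fold lower. Kcna4 passed the filter through primary arrays alone, so its call is a description only. The 2 called among the beta subunits of the Kcna family were called lower in both ESC-RPC groups, Kcnab1 (-1.40 and -1.07) and Kcnab2 (-1.29 and -1.26). Calls of Kcna2, Kcna4 and Kcnab1 were each lost without some single array, at adjusted p up to 0.0744 for Kcna2 and 0.115 for Kcna4 in DKK1-treated cells, and 0.098 for Kcnab1 in untreated cells.

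The Kcnd family, which carries the fast-inactivating current that delays firing, was split. Kcnd2 rose by 1.16 ± 0.32 (SE) on the log2 scale in DKK1-treated cells (adjusted p = 0.0111) and rose by 1.11 ± 0.32 in untreated cells (adjusted p = 0.0133). Kcnd3 fell by 0.50 ± 0.14 (SE) on the log2 scale in DKK1-treated cells (adjusted p = 0.0123) and fell by 0.71 ± 0.14 in untreated cells (adjusted p = 0.00179), and Kcnd1 was not called. Without single arrays Kcnd2 reached an adjusted p of 0.0563 in untreated cells and Kcnd3 one of 0.0517 in DKK1-treated cells. The calcium-binding Kcnip proteins that attach to these pores were split as well, with all 4 called. Over all genes 52.8% were called in DKK1-treated and 53.0% in untreated cells. Kcnip2 measured 81.0, 119 and 88.2 in DKK1-treated cells, 57.8, 81.7 and 74.9 in untreated cells, and 2.86, 11.5 and 34.5 in primary cells. All 6 ESC-RPC arrays were higher, the primary arrays were below their 40th percentile, and the gene was at least 2.0-fold higher in DKK1-treated cells (adjusted p = 0.00372) and at least 1.49-fold higher in untreated cells (adjusted p = 0.00812). Kcnip2 passed the filter through ESC-RPC arrays alone, so its calls are descriptions only. Kcnip3, which also acts as a calcium-sensitive transcriptional repressor, rose (1.08 and 1.24 in DKK1-treated and untreated cells). Kcnip1 fell (-1.79 and -1.81), as did Kcnip4, by at least 1.41-fold in DKK1-treated cells, where all 3 arrays were below the 40th percentile, and with a log2 difference of -0.97 in untreated cells. Its calls were lost without any 1 of 7 arrays in DKK1-treated and 4 in untreated cells (adjusted p up to 0.111 and 0.107), and with the replicate number as a block (adjusted p = 0.0663 and 0.0522).

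Two-pore-domain genes, whose channels hold the resting potential, moved both ways: of 6 kept, 3 rose in each ESC-RPC group and 1, Kcnk1, fell. The background over all genes was 26.0% higher and 26.8% lower in DKK1-treated cells, and 26.1% and 26.9% in untreated cells. Kcnk5 stood at 45.7, 38.9 and 42.5 in primary cells, below the values of both ESC-RPC groups given above, and it rose by 2.60 ± 0.17 (SE) on the log2 scale in DKK1-treated cells (adjusted p = 7.48e-07) and rose by 2.23 ± 0.17 in untreated cells (adjusted p = 2.19e-06). Kcnk2, a stretch- and lipid-sensitive channel gene, measured 584, 719 and 429 in DKK1-treated cells, 556, 550.2 and 349 in untreated cells, and 136, 180.0 and 159 in primary cells. The third array was the lowest in both ESC-RPC groups, yet still above every primary array. Kcnk2 rose by 1.84 ± 0.23 (SE) on the log2 scale in DKK1-treated cells (adjusted p = 7.81e-05) and rose by 1.59 ± 0.23 in untreated cells (adjusted p = 0.000216). The related Kcnk10 also rose (0.75 and 1.05 in DKK1-treated and untreated cells), and its call in DKK1-treated cells was lost without some single arrays (adjusted p up to 0.104).

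Of the 5 genes for calcium- and sodium-activated potassium channels and their sperm relative Kcnu1, 2 rose in DKK1-treated and 3 in untreated cells, and none fell. Over all genes 26.0% and 26.1% rose, and 26.8% and 26.9% fell. A second, dimmer probe set of Kcnma1, the pore gene of the large-conductance channel, was called lower in untreated cells (-1.88 on the log2 scale, adjusted p = 0.0242 in a limma fit of all kept probe sets). Kcnn2, a small-conductance channel gene opened by intracellular calcium, measured 305, 329 and 276 in DKK1-treated cells, 282, 282 and 284 in untreated cells, and 98.0, 125 and 104 in primary cells. Its ESC-RPC arrays were closely grouped and all above the primary arrays, and it rose by 1.48 ± 0.14 (SE) on the log2 scale in DKK1-treated cells (adjusted p = 1.44e-05) and rose by 1.38 ± 0.14 in untreated cells (adjusted p = 2.38e-05). Kcnt2, whose channel opens with intracellular sodium, measured 126, 105 and 91.8 in DKK1-treated cells, 102, 113 and 95.4 in untreated cells, and 87.8, 17.4 and 17.1 in primary cells. The first primary array was close to the ESC-RPC arrays and the other 2 were far lower. Kcnt2 rose by 1.85 ± 0.54 (SE) on the log2 scale in DKK1-treated cells (adjusted p = 0.0143) and rose by 1.80 ± 0.54 in untreated cells (adjusted p = 0.0161), and both calls were lost without some single arrays (adjusted p up to 0.0524 in DKK1-treated and 0.0582 in untreated cells). Kcnn1 rose in untreated cells (0.50), with adjusted p up to 0.133 without a single array and 0.062 with the replicate block. Kcnmb4, a neuronal beta subunit of the large-conductance channel, rose in both (1.01 and 0.87 in DKK1-treated and untreated cells).

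Inward rectifiers pass potassium more easily into the cell than out. Of 7 kept, 2 rose and 1 fell in each ESC-RPC group. The 2 pore genes of ATP-sensitive channels moved in opposite directions. Kcnj11 stood at 753, 716 and 803 in primary cells, above both ESC-RPC groups, and it fell by 1.78 ± 0.18 (SE) on the log2 scale in DKK1-treated cells (adjusted p = 1.56e-05) and fell by 1.21 ± 0.18 in untreated cells (adjusted p = 0.000227). Kcnj8 measured 55.1, 64.1 and 74.4 in DKK1-treated cells, 55.8, 83.9 and 71.0 in untreated cells, and 20.6, 36.8 and 28.7 in primary cells. Its primary arrays were all below the 40th percentile, and it was at least 1.35-fold higher in DKK1-treated cells (adjusted p = 0.0102) and at least 1.46-fold higher in untreated cells (adjusted p = 0.00632). Kcnj8 passed the filter through ESC-RPC arrays alone, so its calls are descriptions only. Kcnj12 measured 65.1, 59.3 and 66.3 in DKK1-treated cells, 42.6, 50.4 and 64.5 in untreated cells, and 35.9, 9.98 and 29.7 in primary cells. It was at least 1.34-fold higher in DKK1-treated and at least 1.09-fold higher in untreated cells. The measured log2 differences were 1.529 (adjusted p = 0.019) and 1.235 (adjusted p = 0.0474). Kcnj12 passed the filter through ESC-RPC arrays alone, so its calls are descriptions only. The Kcnj12 calls were lost without any 1 of 2 arrays in DKK1-treated cells and 7 in untreated cells (adjusted p up to 0.0541 and 0.139). Kcnj10, the rectifier that glia use to clear potassium, differed by 0.02 ± 0.19 in DKK1-treated and -0.05 ± 0.19 in untreated cells. Its groups overlapped, and it was not called.

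Among the remaining potassium channel genes, Kcns2, another silent subunit, fell (-1.66 and -1.45 in DKK1-treated and untreated cells). In the ether-a-go-go family Kcnh2, the cardiac repolarising channel gene, fell in DKK1-treated cells (-0.87). In untreated cells Kcnh1 (-0.84) and Kcnh8 (-0.59) fell, with adjusted p up to 0.113 and 0.151 when a single array was left out. The noncoding RNA Kcnq1ot1, which silences neighbouring imprinted genes, averaged 632 ± 132 in DKK1-treated, 651 ± 61.3 in untreated and 383 ± 80.7 in primary cells (SD, n = 3 arrays each). It rose in both ESC-RPC groups (0.72 and 0.78). Kcnq1 itself was below the filter.

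Among calcium channel pores, the low-voltage gene Cacna1h and the L-type gene Cacna1d fell, while Cacna1e and Cacna1a rose. Cacna1h measured 184, 251 and 168 in DKK1-treated cells, 180.0, 235 and 181 in untreated cells, and 923, 834 and 1030.2 in primary cells. No ESC-RPC array came near the primary values, and it fell by 2.22 ± 0.18 (SE) on the log2 scale in DKK1-treated cells (adjusted p = 3.32e-06) and fell by 2.23 ± 0.18 in untreated cells (adjusted p = 3.25e-06). Cacna1d was below the 40th percentile on all ESC-RPC arrays and was at least 2.86-fold lower in DKK1-treated cells (adjusted p = 0.000208) and at least 2.89-fold lower in untreated cells (adjusted p = 0.000178). It passed the filter through primary arrays alone, so its calls are descriptions only. Cacna1e, an R-type pore gene, measured 103, 129.9 and 61.2 in DKK1-treated cells, 99.6, 80.6 and 63.5 in untreated cells, and 20.7, 51.5 and 34.1 in primary cells. Every ESC-RPC array was above every primary array, all of which were below the 40th percentile. The gene passed the filter through ESC-RPC arrays alone, so its calls are descriptions only. Cacna1e was at least 1.98-fold higher in DKK1-treated cells (adjusted p = 0.00899) and at least 1.69-fold higher in untreated cells (adjusted p = 0.0204), and the call in untreated cells was lost without some single arrays (adjusted p up to 0.0767). Cacna1a, the P/Q-type gene of nerve terminals, rose by 0.67 and 0.53 on the log2 scale in DKK1-treated and untreated cells, with adjusted p up to 0.113 in untreated cells without a single array. Cacna1b, Cacna1c, Cacna1g and the photoreceptor gene Cacna1f were not called. Cacna1f measured 4.77, 8.68 and 69.0 in untreated cells, against 33.0, 44.0 and 95.9 in primary cells. The third untreated array stood apart, and without it the log2 difference was -3.01 (adjusted p = 0.0158), beside -1.87 with it (adjusted p = 0.139).

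Auxiliary calcium channel genes moved both ways. Cacna2d3, an alpha2delta subunit that promotes trafficking of pores, measured 611, 913 and 551 in DKK1-treated cells, 510.3, 592 and 506 in untreated cells, and 203, 161 and 206 in primary cells. All ESC-RPC arrays exceeded the primary arrays, and it rose by 1.84 ± 0.19 (SE) on the log2 scale in DKK1-treated cells (adjusted p = 2.06e-05) and rose by 1.50 ± 0.19 in untreated cells (adjusted p = 8.51e-05). Cacnb2 rose in both groups (1.41 and 1.25 in DKK1-treated and untreated cells), with an adjusted p of 0.0641 in untreated cells without 1 array. Cacnb4, at 83.6, 91.7 and 80.2 in primary cells, rose by 1.16 ± 0.27 in DKK1-treated cells (adjusted p = 0.0041) and was not called in untreated cells (0.63 ± 0.27, adjusted p = 0.0667). In untreated cells it was called under quantile normalisation (adjusted p = 0.0402), with 1 common median (0.0432) and with the replicate block (0.0287). It was also called there without DKK1-treated replicate 3 (adjusted p = 0.0487) and without untreated replicate 3 (0.0161). The direct comparison of the DKK1-treated and untreated groups, given above, did not call Cacnb4. Its other kept probe sets were read from a limma fit of all kept probe sets. In DKK1-treated cells one differed by 0.91 (adjusted p = 0.0278) and another by 0.68 (adjusted p = 0.172). In untreated cells they differed by 0.10 and 0.69 and were not called (adjusted p = 0.801 and 0.166).

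Of 6 Cacng genes, whose proteins mostly escort glutamate receptors, 3 fell in each ESC-RPC group. Over all genes 26.8% fell in DKK1-treated and 26.9% in untreated cells. Cacng3 measured 41.2, 26.0 and 9.34 in DKK1-treated cells, 28.7, 23.5 and 9.23 in untreated cells, and 170.0, 132 and 244 in primary cells. It was below the 40th percentile on every ESC-RPC array and was at least 3.75-fold lower in DKK1-treated cells (adjusted p = 0.0017) and at least 3.78-fold lower in untreated cells (adjusted p = 0.00109). Cacng3 passed the filter through primary arrays alone, so its calls are descriptions only. Cacng2 (-1.26 and -1.36 in DKK1-treated and untreated cells) and Cacng5 (-1.16 and -0.93) also fell, Cacng5 with an adjusted p up to 0.0892 in untreated cells without a single array. Cacng7, at 150.1, 156 and 173 in primary cells, rose by 0.68 ± 0.15 in untreated cells (adjusted p = 0.00322) and was not called in DKK1-treated cells (0.33 ± 0.15, adjusted p = 0.0848). Its other kept probe set had the calls the other way round, with 0.58 in DKK1-treated cells (adjusted p = 0.0329) and 0.24 in untreated cells (adjusted p = 0.345). Cacng4 averaged 1151 ± 164 in DKK1-treated, 1133 ± 166 in untreated and 1136 ± 211 in primary cells and was not called.

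Sodium channel genes were measured as 5 pore subunits, 2 beta subunits and Scnm1. Scn3a, the pore gene known for its high level in the embryonic and newborn nervous system, was the only pore gene called. It measured 852, 979 and 674 in DKK1-treated cells, 796, 809.8 and 578 in untreated cells, and 225, 344 and 288 in primary cells. The ESC-RPC arrays were all above the primary arrays, and Scn3a rose by 1.55 ± 0.20 (SE) on the log2 scale in DKK1-treated cells (adjusted p = 9.34e-05) and rose by 1.36 ± 0.20 in untreated cells (adjusted p = 0.000238). Its neighbours on chromosome 2 did not pass the test on all 9 arrays. In RefSeq's order these are Scn2a next to it and, past 3 other coding genes, Scn1a and Scn9a. Scn2a, found on axons early in development, measured 351, 454 and 185 in DKK1-treated cells, 342, 353 and 203 in untreated cells, and 249.6, 302 and 224 in primary cells, with the 3 groups overlapping. Without both ESC-RPC arrays numbered 3 Scn2a was called in DKK1-treated cells (0.64, adjusted p = 0.0223), beside 0.27 with them. Scn1a, prominent in inhibitory neurons, measured 118, 91.1 and 61.6 in DKK1-treated cells, 81.7, 54.5 and 60.9 in untreated cells, and 47.9, 75.4 and 46.4 in primary cells. In DKK1-treated cells Scn1a differed by 0.66, and it was called there without DKK1-treated replicate 3 (0.91, adjusted p = 0.0487) or without primary replicate 2 (0.88, adjusted p = 0.0445). Scn9a, a gene of peripheral sensory neurons, measured 30.5, 58.3 and 36.5 in DKK1-treated cells, 34.9, 30.1 and 46.3 in untreated cells, and 97.2, 59.6 and 39.6 in primary cells, and it was above the 40th percentile on only 4 arrays. Scn8a, the main pore of mature nodes of Ranvier, measured 224, 282 and 197 in DKK1-treated cells, 331, 296 and 208 in untreated cells, and 151, 264 and 217 in primary cells, and its groups overlapped too. Another probe set of Scn8a was called higher in both DKK1-treated cells (0.67 on the log2 scale, adjusted p = 0.014) and untreated cells (0.73, adjusted p = 0.00946) in the fit of all kept probe sets.

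Both beta subunits, which modulate the pores and act in cell adhesion, rose. Scn3b measured 978, 1216 and 759.9 in DKK1-treated cells, 994, 1125 and 686 in untreated cells, and 425, 692 and 359 in primary cells. Primary replicate 2 reached the lowest untreated array, so those 2 groups overlapped, while the DKK1-treated arrays did not. Scn3b rose by 1.03 ± 0.26 (SE) on the log2 scale in DKK1-treated cells (adjusted p = 0.00757) and rose by 0.95 ± 0.26 in untreated cells (adjusted p = 0.0114), and without untreated replicate 2 the adjusted p was 0.0507 in untreated cells. Scn2b measured 217, 205 and 179 in DKK1-treated cells, 186, 169 and 145 in untreated cells, and 121, 138 and 92.4 in primary cells. It rose by 0.79 ± 0.19 (SE) on the log2 scale in DKK1-treated cells (adjusted p = 0.00559) and rose by 0.52 ± 0.19 in untreated cells (adjusted p = 0.0401), and the call in untreated cells was lost without any 1 of 6 arrays (adjusted p up to 0.134). Without untreated replicate 2 the sodium channel genes called in untreated cells numbered 2. The splicing factor gene Scnm1 measured 715, 769 and 734 in DKK1-treated cells, 687, 748 and 774 in untreated cells, and 1310.5, 1137 and 1382 in primary cells, lower on every ESC-RPC array, and it fell by 0.78 ± 0.10 (SE) on the log2 scale in DKK1-treated cells (adjusted p = 0.000118) and fell by 0.79 ± 0.10 in untreated cells (adjusted p = 0.000112).

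**Figure D4:**
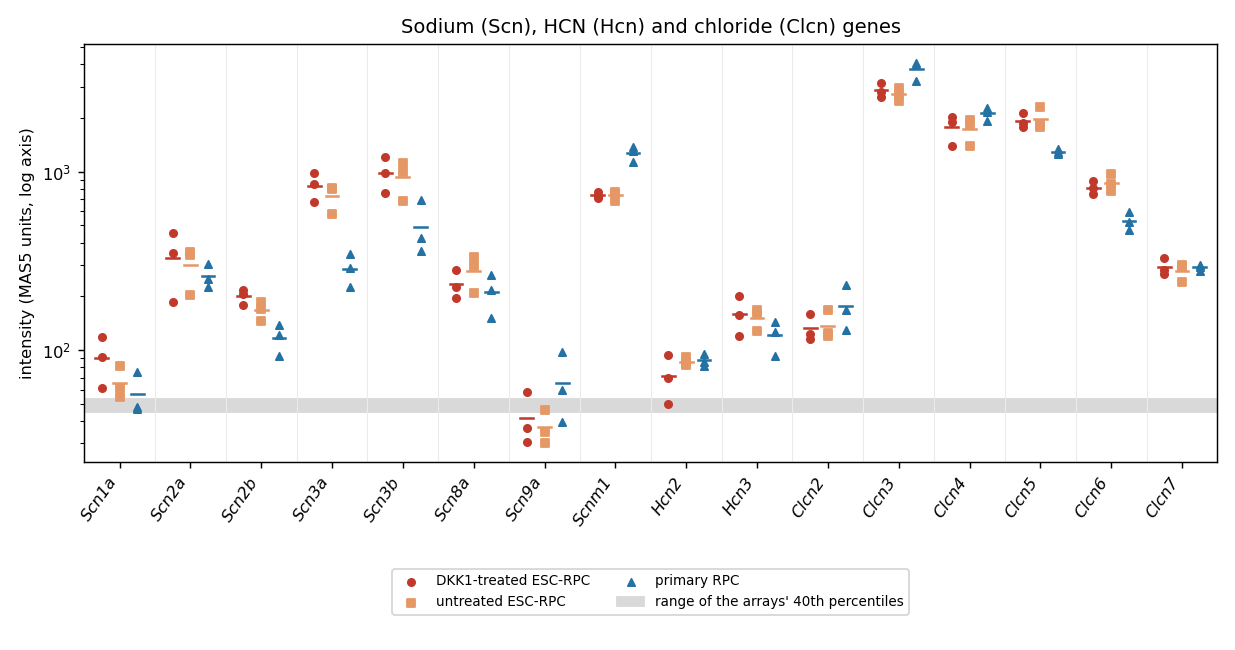
Intensity (log axis) on each array of the 8 sodium, 2 hyperpolarization-activated and 6 chloride channel genes, with DKK1-treated, untreated and primary arrays from left to right for each gene, a bar for each mean and a grey band for the range of the arrays' 40th percentiles. Scn3a lies higher in both ESC-RPC groups than in primary cells, Scnm1 and Clcn3 lie lower, and the groups of Hcn2 and Hcn3 overlap.

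Hyperpolarization-activated channels pass the pacemaker current, which photoreceptors use to shape their light response. Hcn2 measured 93.7, 49.7 and 69.7 in DKK1-treated cells, 84.6, 82.6 and 90.9 in untreated cells, and 81.2, 94.8 and 85.9 in primary cells. Hcn3 measured 157, 200.3 and 121 in DKK1-treated cells, 167, 161 and 128 in untreated cells, and 143, 127 and 92.5 in primary cells. Neither gene was called in any comparison, and their groups overlapped. Against primary cells Hcn2 differed by -0.34 ± 0.26 in DKK1-treated and -0.02 ± 0.26 in untreated cells, and Hcn3 by 0.39 ± 0.24 and 0.35 ± 0.24. A test that was not passed does not show that the levels were alike.

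By the probe sets used, the called chloride channel genes differed by modest amounts. Clcn3, an exchanger gene of endosomes and synaptic vesicles, measured 2812, 3125 and 2628 in DKK1-treated cells, 2719, 2937 and 2479 in untreated cells, and 3943, 4072 and 3244 in primary cells. It was lower on every ESC-RPC array and fell by 0.39 ± 0.11 (SE) on the log2 scale in DKK1-treated cells (adjusted p = 0.0112) and fell by 0.47 ± 0.11 in untreated cells (adjusted p = 0.00441). Clcn5, an endosomal exchanger gene, measured 1778, 1877 and 2139 in DKK1-treated cells, 1849.6, 2319 and 1785 in untreated cells, and 1297, 1332 and 1252 in primary cells, and it rose by 0.57 ± 0.11 (SE) on the log2 scale in DKK1-treated cells (adjusted p = 0.00172) and rose by 0.61 ± 0.11 in untreated cells (adjusted p = 0.00121). Clcn6, a late endosomal exchanger gene of neurons, measured 745, 884 and 811 in DKK1-treated cells, 848, 966 and 784 in untreated cells, and 523, 469.9 and 593 in primary cells, and it rose by 0.62 ± 0.13 (SE) on the log2 scale in DKK1-treated cells (adjusted p = 0.00186) and rose by 0.71 ± 0.13 in untreated cells (adjusted p = 0.000805). Both were above the primary range on all 6 ESC-RPC arrays. Other kept probe sets of Clcn3, Clcn5 and Clcn6 had the same sign in untreated against primary cells without a call for at least 1 of them in each gene. Some differed by more and were called. Another probe set of Clcn5 differed by 1.20 in DKK1-treated and 1.15 in untreated cells, and another of Clcn3 by -1.14 and -1.01.

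The other chloride channel genes were not called. Clcn2, a plasma membrane channel gene, measured 116, 122 and 159 in DKK1-treated cells, 167, 124 and 119 in untreated cells, and 129.9, 230.3 and 168 in primary cells. Clcn4, another endosomal exchanger gene, measured 1895, 2033 and 1397 in DKK1-treated cells, 1827, 1959 and 1399 in untreated cells, and 2171, 1927 and 2282 in primary cells. Array 3 was the lowest in both ESC-RPC groups. Clcn7, of lysosomes, measured 268, 282 and 326 in DKK1-treated cells, 298, 292 and 242 in untreated cells, and 294, 278 and 301 in primary cells, with overlap of all groups.

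The third array of each ESC-RPC group held low values for many of the 88 members. It was the lowest of its group in both DKK1-treated and untreated cells for 42 of 88 members (47.7%), against 23.2% of all genes, and the highest in both for 8 members (9.09%), against 21.8%. By ion this held for 24 of 53 potassium, 10 of 19 calcium, 5 of 8 sodium, 2 of 6 chloride and 1 of 2 hyperpolarization-activated channel genes. The median deviation of the members from their group mean on that array was -0.20 on the log2 scale in DKK1-treated and -0.17 in untreated cells, beside 0.00 over all genes in each. The summed neuron markers were also lowest there, at 56545 against 64209.8 and 72640.2 in DKK1-treated cells and at 56997 against 66373 and 67139 in untreated cells. Those of glia (27862 in DKK1-treated and 27986 in untreated cells), of amacrine and ganglion cells (8011 and 7441) and of cardiac and skeletal muscle (797 and 743) were lowest there as well, while those of photoreceptors (1689 and 1852) and retinal progenitors (24079 and 24118) were highest there. Sums of cyclic nucleotide-gated and TRP channels, outside the rule, were highest there too (4238 in DKK1-treated and 3842 in untreated cells). Lowest there were channel partners (17709 and 16788), ion pumps and cation-chloride transporters (18820 and 18173), endothelium (423 and 368) and pigment epithelium (300 and 345). The remaining lists were not at the same end in both groups. The part of these lists in the channel values was not tested. This pattern was noticed in the data. Without both of these arrays 42 members were called in DKK1-treated and 40 in untreated cells against primary cells, and 0 between DKK1-treated and untreated cells.

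**Figure D5:**
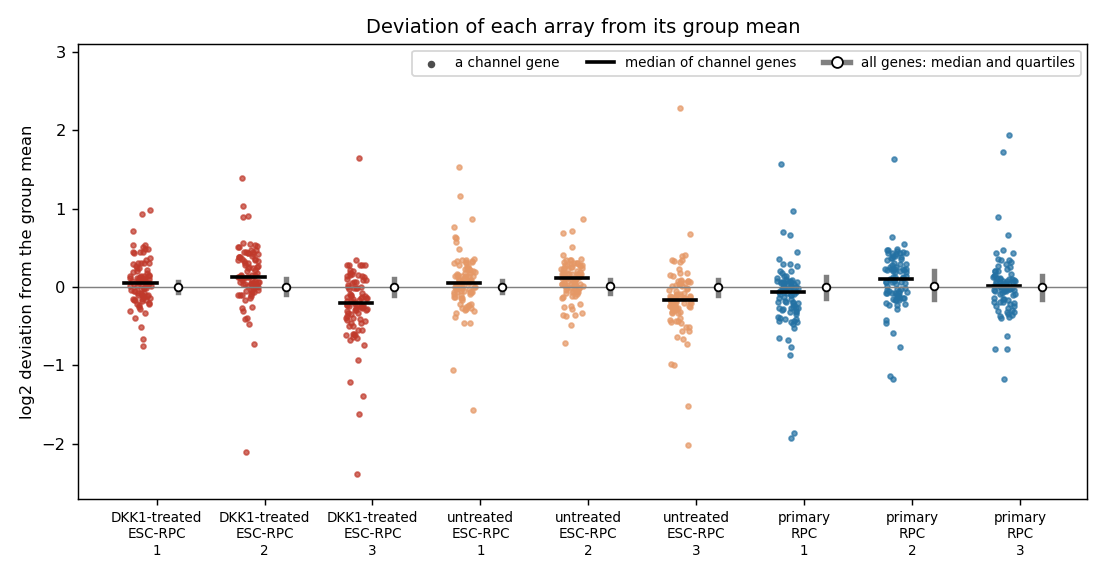
Deviation of each of the 88 channel genes from its group mean (log2) on every array, with DKK1-treated, untreated and primary arrays from left to right, a black bar for the members' median and, beside it, the median and quartiles of all genes. The members' median lies at -0.20 on the third DKK1-treated and -0.17 on the third untreated array.

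Genes that act beside the channels were counted from fixed lists, each as the number called higher and lower against primary cells. The background over all genes was 26.0% higher and 26.8% lower in DKK1-treated cells. In untreated cells it was 26.1% higher and 26.9% lower. Of 26 measured channel partners and anchors, 6 rose and 9 fell in DKK1-treated cells, and 6 rose and 10 fell in untreated cells. Of 14 cyclic nucleotide-gated and TRP channel genes, 3 rose and 6 fell in DKK1-treated cells, and 2 rose and 5 fell in untreated cells. Of 15 ion pumps and chloride transporters, 2 rose and 4 fell in DKK1-treated cells, and 2 rose and 5 fell in untreated cells. REST represses neuronal genes, many channel genes among them. Of 11 genes for REST and its corepressors, 3 rose and 3 fell in DKK1-treated cells, and 4 rose and 3 fell in untreated cells. Rest itself averaged 1482 ± 117 in DKK1-treated, 1232 ± 64.1 in untreated and 1372 ± 366 in primary cells (SD, n = 3) and was not called. No gene of these lists was called between DKK1-treated and untreated cells.

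The filter left out 43 channel symbols. The nearest to passing, above the 40th percentile on 2 arrays, were Kcne4, Kcnk12, Kcnk3, Kcnv1 and Scn11a, and 9 kept members passed on exactly 3. Of these, Cacna1d, Cacng3, Kcna4, Kcne2 and Kcnv2 passed through the 3 primary arrays alone. Cacna1e, Kcnip2, Kcnj8 and Kcnj12 were below that percentile on all primary arrays and passed through ESC-RPC arrays alone. The filter favoured a difference for these genes, so their calls are descriptions only. Above the 40th percentile on 1 array were Cacna2d4, Cacng6, Kcnh7, Kcnk6, Kcnmb1, Kcnq5 and Scnn1b. Above it on none were the muscle pore gene Cacna1s and Cacng1, Clcn1, Kcna3, Kcne1, Kcne3, Kcng2, Kcng4, Kcnh5, Kcnj1, Kcnj13, Kcnj14, Kcnj15, Kcnj16, Kcnj2, Kcnj5, Kcnj9, Kcnk15, Kcnk16, Kcnk4, Kcnmb4os1, Kcnn3, Kcnn4, Kcnq1, Kcns1, Kcnt1, Scn10a, Scn4b, Scn7a, Scnn1a and Scnn1g. A probe set below that level does not show that its gene is silent. Of the 88 members 34 had several kept probe sets, and for none were probe sets called in opposite directions in either ESC-RPC group against primary cells. For 8 members not called in a comparison, another kept probe set was called in it. Besides Cacng7, Kcnma1 and Scn8a, described above, these were Cacnb1, Kcnc1, Kcnd1, Kcnh1 and Kcnj3. Cacnb1 was higher by that probe set (1.07 and 0.97 on the log2 scale in DKK1-treated and untreated cells), and Kcnd1 was higher in untreated cells (0.88). Kcnh1 was lower in DKK1-treated cells (-1.07), and Kcnj3, a G protein-gated rectifier gene, was lower in both (-1.18 and -0.82). Of the 2 other probe sets of Kcnc1, a pore gene of fast-spiking neurons, one was lower in both (-0.95 and -1.81, adjusted p = 0.0442 and 0.00158) and the other was not called (-0.07 and -0.20), beside 0.23 and 0.40 for the one used.

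Leaving out a single array also added calls against primary cells, for 6 of 42 members not called in DKK1-treated and 10 of 41 in untreated cells. Besides Cacna1f, Cacnb4 and Scn1a, described above, these turned on the following arrays. Without primary replicate 3, Kcns3, a silent subunit gene, was called higher in DKK1-treated cells (2.67, beside 1.69 with it) and in untreated cells (2.31, beside 1.34 with it). Without the same array Kcnn1 was called higher in DKK1-treated cells (0.65, beside 0.47 with it), as it also was without DKK1-treated replicate 3 (0.56), and in untreated cells Kcnq3 was called higher (0.72, beside 0.39 with it) and Kcnh2 lower (-0.68, beside -0.49 with it). Without primary replicate 2, the inward rectifier gene Kcnj4 was called higher in DKK1-treated cells (2.08, beside 1.27 with it) and in untreated cells (2.53, beside 1.71 with it), and Kcnk7 was called higher in DKK1-treated cells (1.07, beside 0.83 with it). In untreated cells, Cacnb1 (0.63, beside 0.50 with it) and Kcnc1 (0.62, beside 0.40 with it) were called higher without untreated replicate 3, and Kcnj3 lower without untreated replicate 1 (-1.02, beside -0.71 with it). Kcnh8 was called lower in DKK1-treated cells without DKK1-treated replicate 2 (-0.65, beside -0.44 with it). Kcng1, a silent subunit gene, was called higher in untreated cells without DKK1-treated replicate 2, at the same difference of 1.63.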

How the data were processed

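RNA from 3 DKK1-treated ESC-RPC, 3 untreated ESC-RPC and 3 primary samples was hybridised as biotin-labelled cRNA to Affymetrix arrays. The deposited values are linear intensity values that the authors made with MAS5, per the submitters' processing notes, which name no version or settings. Each array's mean after trimming 2% at either end was 500. Precision is limited by the number of arrays; read depth does not apply.

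The table held 45101 probe sets, 64 of them controls. Log2 was taken, and a probe set was kept above its array's 40th percentile (over all probe sets) on at least 3 arrays, which left 29052. Of these 24773 had exactly 1 gene, and each of 13320 genes was read from the one that was brightest on average over the 9 arrays. One limma 3.58.1 model in R 4.3.3 (1 mean per group, empirical Bayes with an intensity trend, two-sided) was fitted to all 9 arrays, with Benjamini-Hochberg adjustment over all genes, and was tested on simulated data. For a group with every array under that percentile, the fold was taken against the percentile and printed as "at least". The adjusted p beside such a fold is from the model of the measured values.

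Array values are given for all sodium, hyperpolarization-activated and chloride members, for the 8 largest rises and 8 largest falls against primary cells among called, non-overlapping potassium and calcium members, and for the 6 smallest p-values between DKK1-treated and untreated cells. Array values of Cacna1f are given because its call turned on 1 array. A few other members are given as means. The members and lists were chosen with earlier results of these data known.

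Deviations from group means correlated at 0.123, 0.195 and 0.318 between DKK1-treated and untreated arrays of the same replicate number, across genes. Each was above 0.1, and on that basis the arrays were treated as pairs. Between DKK1-treated and untreated arrays of different number the correlations ran from -0.234 to 0.0681. The blocked fits use the same values that the pairing was read from, so they are no check of it. This pairing comes from the values and not from the labels. With primary arrays the values were -0.0433 to -2.36e-06, and these were not paired. The p-values measure the spread between arrays of biological repeats; how those were cultured apart is not given in the sources used here.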

Additional observations from a re-analysis of the deposited data

How the results depend on the processing

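No member called against primary cells changed direction under the alternatives run, and between DKK1-treated and untreated cells 0 members were called under each of them. Leaving out single arrays gave 42 to 47 called members in DKK1-treated against primary cells and 35 to 45 in untreated against primary cells, with 2 to 4 among sodium channel genes in untreated cells. The lowest of these counts came without untreated replicate 2. Of the members called, 39 of 46 in DKK1-treated and 32 of 47 in untreated cells stayed called whichever array was left out. A filter above the 40th percentile on all 9 arrays, which keeps 57 members, gave 30 called in DKK1-treated and 30 in untreated cells, with 17 potassium and 6 calcium channel genes in each; fewer genes were tested. Quantile normalisation, 1 common median, log2(value + 32), averaged probe sets, no intensity trend and a fit of 6 arrays gave 44 to 49 in DKK1-treated and 43 to 49 in untreated cells. Without the filter, 48 of 131 symbols were called in DKK1-treated and 43 in untreated cells, and 45 and 41 of the 88 kept members. With the replicate number as a block on all 9 arrays, 45 were called in DKK1-treated and 46 in untreated cells, and 0 between DKK1-treated and untreated cells; a block on the 6 ESC-RPC arrays alone also called 0, so the block changed no count by over 1.5 times. On 9 arrays it ended the calls of Kcnip4 in both ESC-RPC groups and of Kcnn1 in untreated cells, added that of Cacnb4 in untreated cells, and changed no other call of a member. The count of 42 members lowest on the third array of both ESC-RPC groups, looked at after seeing the data, was 38 under quantile normalisation and 38 with 1 common median, against 22.3% and 19.9% of all genes. Leaving out both of those arrays was also chosen after seeing the data. Values near or below the 40th percentile limit folds: with measured means in place of the percentiles, Kcne2 would read 175.3-fold lower in DKK1-treated and 102.4-fold lower in untreated cells.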
